A study of Mus musculus with 12 samples.

Results

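The genes Sema6d, Xlr, Lilrb4a, Timp2 and B3galt2, which differ in function, were lower with a Myb vector in 1 or both of a pair of mouse natural killer (NK) cell lines. They were chosen by the fall of their log2 values with the Myb vector against GFP on these arrays, so these falls are given as a description, with no test. They are 5 of 19938 genes that a probe set with a single gene symbol measured, and each was read by 1 probe set (10475544, 10604656, 10363082, 10393559 and 10350473 in the order above).

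NK cells are innate lymphocytes that lyse infected or transformed cells and release cytokines. KY-1 and KY-2 are NK cell lines that both lack p53 and were both grown with 200 U/mL human IL-15. Cells were transduced with a vector for GFP, P2A and FLAG-tagged Myb, or with GFP alone as the control, and GFP-positive cells were sorted for total RNA. The series holds 12 Affymetrix arrays, each of 1 sample: 3 of KY-2 with Myb, 2 of KY-2 with GFP, 4 of KY-1 with Myb and 3 of KY-1 with GFP. The sources used here give neither the promoter of the vectors nor whether a line is a single clone, and nothing says that replicates were separate cultures, so the spread between them may be technical.

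All values are log2 expression per probe set as the authors deposited them. Array medians lay between 5.31 and 5.42. In KY-1, Myb arrays 3 and 4 differed from each other by less than other arrays of a group did, as did GFP arrays 1 and 2, and each pair was averaged into 1 sample, which left 3 Myb and 2 GFP replicates per line. The Myb probe set separated the vectors as labelled: Myb averaged 9.74 ± 0.07 (SD, n = 3) in KY-2 with Myb and 5.05 ± 0.07 (SD, n = 2) in KY-2 with GFP, and 9.57 ± 0.02 (SD, n = 3) in KY-1 with Myb and 7.99 ± 0.07 (SD, n = 2) in KY-1 with GFP. Of 12 NK markers, 12 in KY-2 and 11 in KY-1 lay above the level under which 95% of 1027 olfactory receptor genes fell (between 5.04 and 5.11, used here as a sign of low signal). Eomes was below it in KY-1, and Ncr1 was close to it in KY-2 (5.34 with Myb and 5.43 with GFP).

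Myb is a transcription factor of blood progenitors that binds DNA at short sites and both activates and represses genes. Sema6d encodes a transmembrane semaphorin, a guidance protein that signals through plexin A1. Xlr encodes a nuclear lymphocyte protein of an X-linked family related to a structural protein of meiotic chromosomes. Lilrb4a encodes gp49B, an inhibitory receptor with cytoplasmic tyrosine motifs (ITIMs) found on mast cells, myeloid cells and activated NK cells. Timp2 encodes a secreted inhibitor of matrix metalloproteinases, and B3galt2 a Golgi enzyme that adds galactose to sugar chains.

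Sema6d was lower with Myb in both lines, by similar log2 differences. Its values were 5.18, 5.26 and 5.46 on the KY-2 Myb arrays, against 6.60 and 6.40 on the KY-2 GFP arrays. On the KY-1 Myb arrays they were 4.79, 4.77, 4.93 and 4.96, against 6.07, 5.92 and 6.01 on the KY-1 GFP arrays. Myb and GFP arrays did not overlap in either line. The log2 difference, Myb minus GFP, was -1.20 ± 0.10 (model SE) in KY-2, a 2.29-fold lower level, and -1.17 ± 0.10 in KY-1, 2.24-fold lower. The KY-2 difference minus the KY-1 difference was -0.03 ± 0.15, as a description. In KY-1 with Myb the mean of 4.83 lay below the low-signal level, so the size of that fall is uncertain.

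Xlr was the dimmest of the 5 genes in KY-1 and fell in both lines. It read 5.65, 5.81 and 5.72 on the KY-2 Myb arrays, against 6.62 and 6.23 on the KY-2 GFP arrays. It read 3.04, 3.02, 3.60 and 2.93 on the KY-1 Myb arrays, against 4.51, 4.62 and 4.77 on the KY-1 GFP arrays. The Myb arrays were the lower ones in both lines, without overlap, and KY-1 Myb array 3 stood above the other 3 of its group. The log2 difference was -0.70 ± 0.13 (model SE) in KY-2, 1.62-fold lower, and -1.56 ± 0.13 in KY-1, 2.96-fold lower. Both KY-1 means, 3.11 with Myb and 4.67 with GFP, lay below the low-signal level, so that fall has an uncertain size. In KY-2 the difference was -0.50 without GFP replicate 1 and -0.89 without GFP replicate 2.

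Lilrb4a, by contrast, fell more in KY-2. Its values were 6.66, 6.90 and 7.06 on the KY-2 Myb arrays, against 8.57 and 8.52 on the KY-2 GFP arrays. They were 8.79, 8.42, 8.90 and 8.85 on the KY-1 Myb arrays, against 9.42, 9.48 and 9.20 on the KY-1 GFP arrays. Myb arrays lay below GFP arrays in both lines, and the narrowest gap was in KY-1. The log2 difference was -1.67 ± 0.15 (model SE) in KY-2, 3.18-fold lower, and -0.63 ± 0.15 in KY-1, 1.54-fold lower. The KY-1 difference ran from -0.75 to -0.49 over 20 alternative settings. Lilrb4a is also a gene of myeloid and mast cells. Of 13 myeloid markers 3 in both Myb groups and 2 in both GFP groups were above the low-signal level (Cd68 and Fcgr1 in all 4 groups, Cebpe with Myb), and Csf1r, Lyz2, Cd14 and Itgam were below it in all 4 groups. The mean level of the list lay between 4.51 and 4.56 in KY-2 with Myb and between 4.41 and 4.43 in KY-2 with GFP, and between 4.49 and 4.63 in KY-1 with Myb and between 4.52 and 4.58 in KY-1 with GFP. Of 12 mast cell and basophil markers, 1 in KY-2 with Myb (Kit), 2 in KY-2 with GFP (Kit and Gata2), 3 in KY-1 with Myb (Kit, Cpa3 and Mcpt8) and 2 in KY-1 with GFP (Kit and Mcpt8) were above the level. Their mean level lay between 4.22 and 4.32 in KY-2 with Myb and between 4.23 and 4.31 in KY-2 with GFP, and between 4.92 and 4.96 in KY-1 with Myb and between 4.72 and 4.74 in KY-1 with GFP.

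Timp2 fell in both lines, and more in KY-1. It read 7.26, 7.05 and 7.01 on the KY-2 Myb arrays, against 7.92 and 7.77 on the KY-2 GFP arrays. It read 5.43, 5.61, 5.05 and 5.19 on the KY-1 Myb arrays, against 6.62, 6.75 and 6.71 on the KY-1 GFP arrays. No Myb array reached the lowest GFP array of its line. The log2 difference was -0.74 ± 0.13 (model SE) in KY-2, 1.67-fold lower, and -1.31 ± 0.13 in KY-1, 2.48-fold lower. The mean in KY-1 with Myb was 5.39 ± 0.25 (SD, n = 3), close to the low-signal level.

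B3galt2 separated by vector in KY-1 but not in KY-2. Its values were 6.35, 6.40 and 6.33 on the KY-2 Myb arrays, against 6.86 and 6.26 on the KY-2 GFP arrays. They were 7.82, 8.10, 8.05 and 8.07 on the KY-1 Myb arrays, against 9.32, 9.45 and 9.32 on the KY-1 GFP arrays. The 3 KY-2 Myb arrays lay between the 2 KY-2 GFP arrays. The log2 difference was -0.20 ± 0.15 (model SE) in KY-2 and -1.36 ± 0.15 in KY-1, 2.56-fold lower. In KY-2 it was 0.10 without GFP replicate 1 and -0.50 without GFP replicate 2, so these arrays give it no settled direction there.

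**Figure D1:**
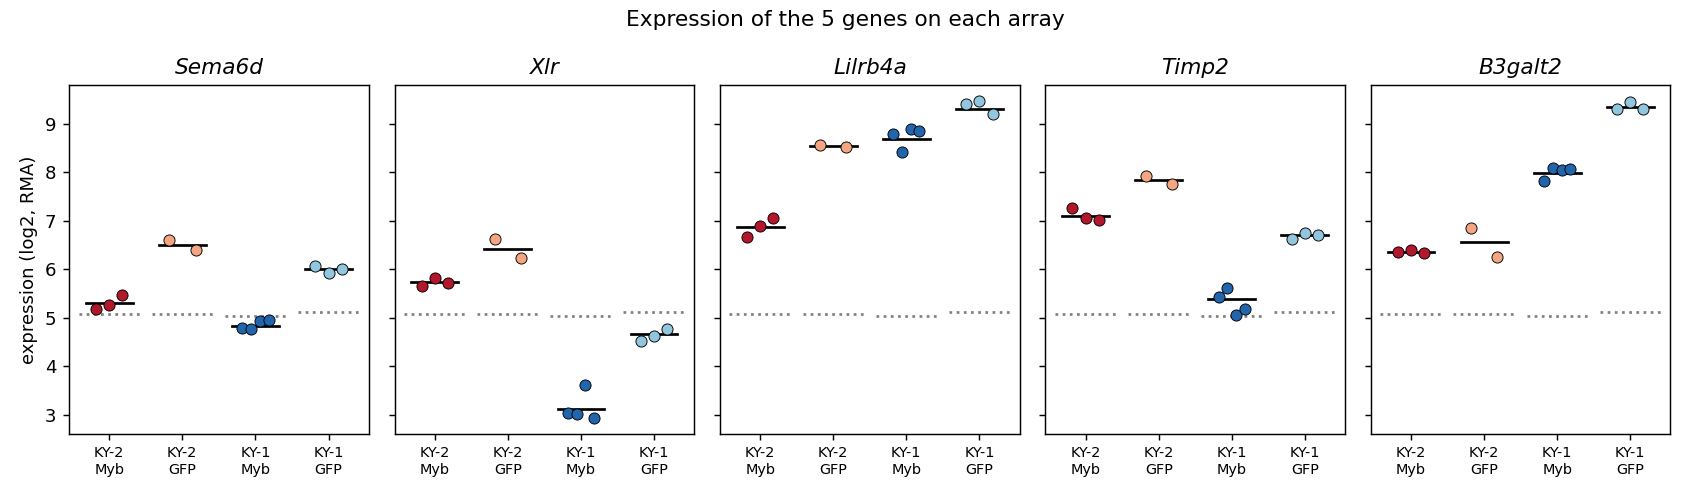
Log2 expression of the 5 genes on the 12 arrays, 1 point per array, in KY-2 and KY-1 cells with the Myb or GFP vector. Black lines are means over replicates, with close arrays averaged first, and dotted lines are the level under which 95% of olfactory receptor genes lay. Myb arrays sit below GFP arrays in both lines, except for B3galt2 in KY-2, where they lie between the GFP arrays of 6.86 and 6.26.

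The choice of the genes by their fall also set their place among all genes. Ranked from the lowest log2 difference among 19938 genes, Xlr was number 3 in KY-1, B3galt2 number 4, Timp2 number 5, Sema6d number 9 and Lilrb4a number 77. In KY-2, Lilrb4a was number 12, Sema6d 25, Timp2 98, Xlr 109 and B3galt2 1808. The Myb arrays were all below the GFP arrays for 4 of 5 genes in KY-2, where 14.6% of all genes had that pattern, and for 5 of 5 in KY-1, where 9.88% had it. The pattern held in both lines for 4 of 5 genes and for 2.72% of all genes. Nothing can be read from these ranks and shares, because the genes were chosen for their falls, and the rank of Xlr in KY-1 rests on low signals.

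Of the 5 genes, 4 had log2 differences that were further apart between the lines than those of Sema6d. Sema6d lay below the low-signal level in KY-1 with Myb, so how close its differences were is uncertain. The KY-2 difference minus the KY-1 difference was -1.04 ± 0.21 for Lilrb4a (model SE), whose fall was deeper in KY-2. It was 1.16 ± 0.21 for B3galt2, 0.87 ± 0.18 for Xlr and 0.57 ± 0.19 for Timp2, whose falls were deeper in KY-1, at low signal in the case of Xlr. These values come from the contrasts that chose the genes and are given without a test. The vector contrast itself was not of equal size in the lines. Myb rose by 4.69 ± 0.08 (model SE) in KY-2 and by 1.58 ± 0.08 in KY-1. Its mean in KY-2 with GFP, 5.05, lay just under the low-signal level of 5.07, so the size of the KY-2 rise is uncertain. Its part in the differences between the lines was not tested.

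**Figure D2:**
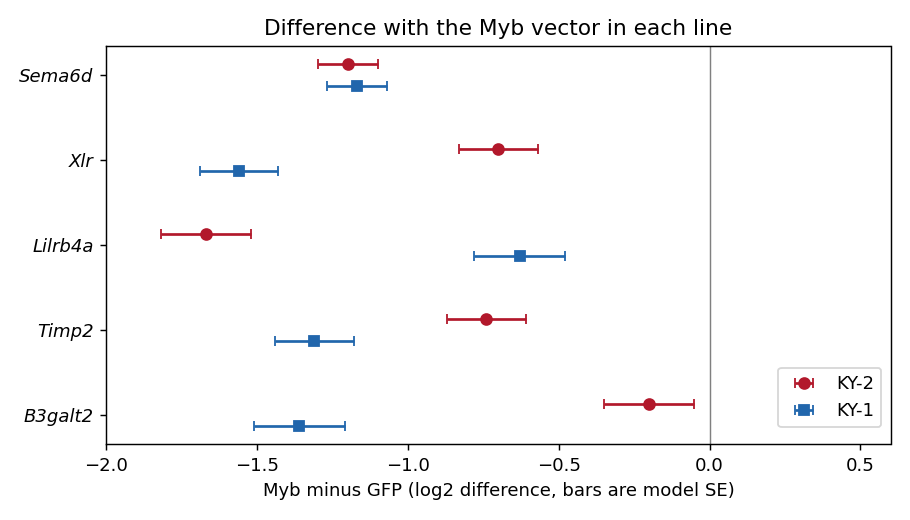
Log2 difference, Myb minus GFP, of each gene in KY-2 (circles) and KY-1 (squares), with bars for the model SE. The points of Sema6d nearly coincide at -1.20 and -1.17, while B3galt2 stands at -0.20 in KY-2 and -1.36 in KY-1. Sema6d lay below the low-signal level in KY-1 with Myb.

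The difference between the lines was the comparison in which the genes could be tested, since their choice used only the vector contrasts. Line means were taken over both vectors with equal weight per replicate, and the contrast was tested with limma and Benjamini-Hochberg adjustment over all genes. All 5 genes differed at an adjusted p under 0.05, as 39.7% of all genes did. Xlr, Timp2 and Sema6d were higher in KY-2 (17.9% of all genes), and B3galt2 and Lilrb4a lower (21.8%).

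Xlr had a line mean of 6.01 in KY-2 and 3.73 in KY-1 (log2 difference 2.27 ± 0.09, model SE, limma adjusted p = 3.34e-09). Both KY-1 groups of Xlr lay below the low-signal level, so its call stands but the size of its line difference, with each vector too, is uncertain. B3galt2 averaged 6.44 in KY-2 and 8.54 in KY-1, 4.27-fold lower in KY-2 (-2.09 ± 0.10, limma adjusted p = 2.73e-08). Timp2 averaged 7.40 in KY-2 and 5.91 in KY-1 (1.49 ± 0.09, limma adjusted p = 1.74e-07). Lilrb4a averaged 7.54 in KY-2 and 8.95 in KY-1 (-1.41 ± 0.10, limma adjusted p = 7.47e-07). Sema6d averaged 5.78 in KY-2 and 5.30 in KY-1 (0.48 ± 0.07, limma adjusted p = 0.000236). In KY-1 with Myb it lay below the low-signal level, so the size of its line difference, with the Myb vector too, is uncertain. For each of the 5 genes the arrays of the lines did not overlap with either vector, a pattern with 1 direction for both vectors that 32.4% of all genes had.

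With the Myb vector alone, KY-2 minus KY-1 was 2.62 ± 0.11 for Xlr, 1.72 ± 0.12 for Timp2, 0.47 ± 0.09 for Sema6d, -1.63 ± 0.13 for B3galt2 and -1.82 ± 0.13 for Lilrb4a (model SE). With the GFP vector alone it was 1.75 ± 0.14, 1.15 ± 0.15, 0.50 ± 0.11, -2.79 ± 0.16 and -0.78 ± 0.16 in the same order. The gap between lines was thus wider with Myb for Timp2 and Lilrb4a and narrower for B3galt2, while for Xlr the KY-1 signal was too low to compare the gaps. Of 8 T cell markers, 6 in KY-2 with either vector, 4 in KY-1 with Myb and 3 in KY-1 with GFP were above the low-signal level. These were Cd3d, Cd3e, Cd3g, Cd8a, Cd6 and Cd28 in KY-2. In KY-1 they were Cd3d, Cd3e and Cd6 with either vector, and Cd3g with Myb. The next values are for the whole list. The mean level of the 8 T cell markers lay between 7.35 and 7.48 in KY-2 with Myb and between 5.38 and 5.44 in KY-1 with Myb. With GFP it lay between 7.49 and 7.59 in KY-2 and between 5.09 and 5.18 in KY-1. The part of the T cell markers in the line differences was not tested.

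**Figure D3:**
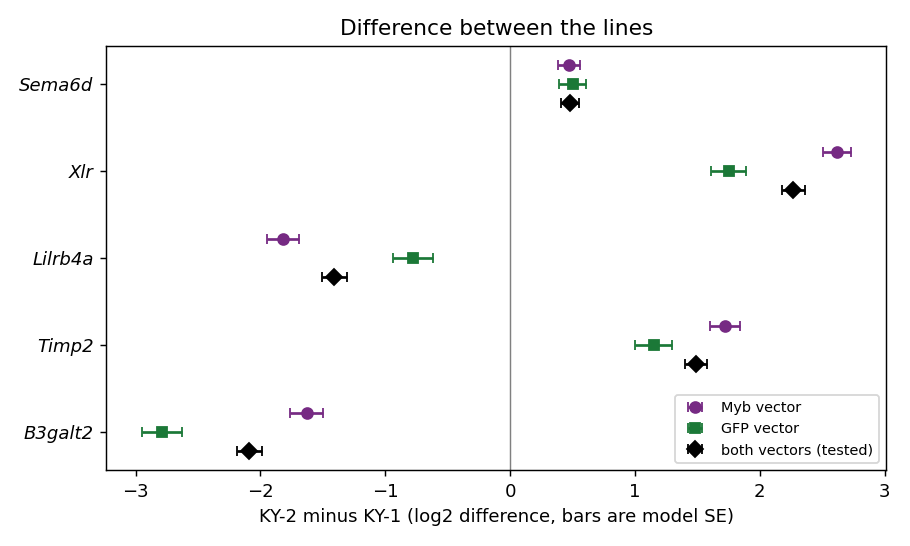
Log2 difference, KY-2 minus KY-1, with the Myb vector (circles), with the GFP vector (squares) and over both vectors (diamonds), with bars for the model SE. Xlr (2.27), Timp2 (1.49) and Sema6d (0.48) were higher in KY-2 over both vectors, and Lilrb4a (-1.41) and B3galt2 (-2.09) lower.

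The 5 genes showed 3 orders of the 4 groups. Xlr and Timp2 shared 1 order, highest in KY-2 with GFP, then KY-2 with Myb, KY-1 with GFP and KY-1 with Myb, and in both genes no neighbouring groups overlapped. Sema6d was highest in KY-2 with GFP, then KY-1 with GFP, KY-2 with Myb and KY-1 with Myb, again without overlap. Lilrb4a and B3galt2 were highest in KY-1 with GFP, then KY-1 with Myb, KY-2 with GFP and KY-2 with Myb. The 2 KY-2 groups of B3galt2 overlapped, and the KY-2 GFP arrays of Lilrb4a (8.52 and 8.57) lay within the range of KY-1 with Myb (8.42 to 8.90).

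The upstream sequences of Xlr, Timp2 and B3galt2 are shown because these 3 genes had a larger fall in KY-1, at low signal for Xlr. The sequences also span the lowest and the highest GC content and include the one with letters that Myb is known to bind. They are the 250 bases before a start in RefSeq on GRCm38.p6, and capitals mark a match to CAACNG or TAACNG on either strand. Xlr is at chrX:53797707-53797956 on the minus strand, Timp2 at chr11:118355412-118355661 on the minus strand and B3galt2 at chr1:143640447-143640696 on the plus strand.
Xlr: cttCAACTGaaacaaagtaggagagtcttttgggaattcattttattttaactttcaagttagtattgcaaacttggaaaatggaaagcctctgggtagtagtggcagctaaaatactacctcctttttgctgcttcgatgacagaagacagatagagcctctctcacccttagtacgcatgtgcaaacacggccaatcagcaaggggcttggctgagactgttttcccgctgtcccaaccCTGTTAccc
Timp2: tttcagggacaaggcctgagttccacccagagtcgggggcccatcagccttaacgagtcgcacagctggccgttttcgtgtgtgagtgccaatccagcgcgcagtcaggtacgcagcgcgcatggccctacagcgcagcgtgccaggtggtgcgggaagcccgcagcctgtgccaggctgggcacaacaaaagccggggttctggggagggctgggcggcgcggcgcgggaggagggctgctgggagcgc
B3galt2: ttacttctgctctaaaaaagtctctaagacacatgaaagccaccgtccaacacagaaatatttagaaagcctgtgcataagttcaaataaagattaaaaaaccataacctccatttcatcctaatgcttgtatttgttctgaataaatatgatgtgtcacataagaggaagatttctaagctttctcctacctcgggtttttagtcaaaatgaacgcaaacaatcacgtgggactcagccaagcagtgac

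The Xlr sequence held 2 matches, CAACTG from 247 to 242 bases before the start and CTGTTA, the reverse form, from 9 to 4 bases before it. Timp2, B3galt2 and the 2 listed starts of Sema6d held none. Of 32851 starts in the table, 43.1% held at least 1 match and 12.6% at least 2, so the letters are common, and a match is not evidence of binding. GC content was 68.0% with 21 CG pairs for Timp2, 36.8% with 4 for B3galt2 and 44.4% with 4 for Xlr, against medians of 52.4% and 6 over all starts. The starts of Sema6d had 52.4% and 45.2%. Promoters were matched for 4 of the 5 genes, and Lilrb4a is named only.

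Genes beside the 5 on the chromosome were examined too. For each gene the nearest measured protein-coding gene on both sides and any whose span overlaps it were taken from the RefSeq table of GRCm38.p6, a choice made after the values of the 5 genes were known. Of these 12 genes, 1 was called in KY-2 and 0 in KY-1 by limma (2 and 2 at an unadjusted p under 0.05). Over all genes 1.28% were called higher and 1.55% lower in KY-2, and 0.612% each way in KY-1. The called gene was Lilr4b, the neighbour and close relative of Lilrb4a, which averaged 7.15 in KY-2 with Myb and 8.70 in KY-2 with GFP, and fell by 1.55 ± 0.18 (model SE, limma adjusted p = 0.000814). In KY-1 it averaged 9.55 with Myb and 9.95 with GFP (-0.40 ± 0.18, limma adjusted p = 0.46). Probe sets of such near-identical genes may read both, so their values are uncertain as to the member. Cdc73, whose span overlaps B3galt2, differed by -0.16 ± 0.09 in KY-2 and -0.22 ± 0.09 in KY-1 (limma adjusted p = 0.554 and 0.417).

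The wider families of the 5 genes were taken from lists. Their counts stand beside the shares of all genes given above. Median differences of the 5 lists lay between -0.012 and 0.109 in KY-2 and between -0.04 and 0.072 in KY-1, near the medians of all genes of 0.011 and -0.001.

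Among 36 semaphorins, plexins and partners, 1 rose and 1 fell in KY-2, and 0 rose and 2 fell in KY-1. Sema4a, a semaphorin of immune cells, averaged 8.48 in KY-2 with Myb and 7.11 in KY-2 with GFP (1.37 ± 0.12, limma adjusted p = 0.000115). The secreted semaphorin gene Sema3a fell by 0.69 ± 0.14 in KY-2 (limma adjusted p = 0.0214), a call lost without either KY-2 GFP replicate or without Myb replicate 1 or 3 (adjusted p up to 0.181). Sema6a, a transmembrane semaphorin of the same class as Sema6d, fell in KY-1, to 5.52 with Myb against 6.19 with GFP (-0.67 ± 0.14, limma adjusted p = 0.0483), and Sema4f fell by 0.50 ± 0.11 (limma adjusted p = 0.0496). These calls were lost on leaving out any of 9 and any of 8 of the 10 replicates (adjusted p up to 0.317 and 0.258).

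Of 28 genes of ITIM receptors, related receptors and signalling partners, 3 rose and 1 fell in KY-2, and 1 rose and 0 fell in KY-1. The inhibitory lectin gene Clec12a averaged 9.88 in KY-2 with Myb and 7.86 in KY-2 with GFP (2.02 ± 0.09, limma adjusted p = 4.53e-07), and 10.07 in KY-1 with Myb and 9.99 in KY-1 with GFP. Milr1, also called allergin, rose in both lines, by 1.44 ± 0.08 in KY-2 (limma adjusted p = 2.17e-06) and by 0.58 ± 0.08 in KY-1 (limma adjusted p = 0.0055). Without KY-1 GFP arrays 1 and 2 the KY-1 rise was 0.55. In KY-2 Milr1 averaged 6.58 with Myb and 5.14 with GFP, the latter close to the low-signal level, so the size of that rise is uncertain. The adhesion gene Pecam1 rose by 0.57 ± 0.09 in KY-2 (limma adjusted p = 0.00499, and 0.0722 without KY-2 GFP replicate 2). Lilr4b, described above, was the 1 gene of this list that fell in KY-2. It encodes gp49A, which lacks ITIMs, and the list also holds the adaptor gene Fcer1g and receptor genes such as Lilra5, Lilra6 and Siglech that lack them.

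Among 35 metalloproteinases, inhibitors and partners, 1 rose and 1 fell in KY-2, and 0 rose and 1 fell in KY-1. Mmp9, a secreted gelatinase, averaged 5.91 in KY-1 with Myb and 6.96 in KY-1 with GFP (-1.05 ± 0.15, limma adjusted p = 0.00592). Without KY-1 GFP replicate 3 the difference was -0.99. Its KY-2 levels of 4.97 with Myb and 4.92 with GFP were below the low-signal level, where a fall may be harder to see. The membrane protease gene Adam8 fell by 0.55 ± 0.11 in KY-2 (limma adjusted p = 0.0258), a call lost without KY-2 GFP replicate 1 or any KY-2 Myb replicate (adjusted p up to 0.297). Mmp13 rose by 0.79 ± 0.14 in KY-2 (limma adjusted p = 0.0127), below the low-signal level with both vectors, and the call was lost without either KY-2 GFP replicate (adjusted p up to 0.113).

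Of 32 galactosyltransferases and related enzymes, 1 rose in each line and 0 fell. B3gnt5, which starts lacto-series glycolipids, averaged 5.18 in KY-2 with Myb and 4.19 in KY-2 with GFP (0.99 ± 0.15, limma adjusted p = 0.00444, and 0.0539 without KY-2 GFP replicate 1). The level with GFP lay below the low-signal level, so the size of that rise is uncertain. St3gal5, the GM3 synthase, averaged 6.30 in KY-1 with Myb and 5.50 in KY-1 with GFP (0.80 ± 0.15, limma adjusted p = 0.0297), a call lost without any 1 of the 5 KY-1 replicates (adjusted p up to 0.198). Of 10 measured Xlr-related and meiotic chromosome genes, 0 were called by limma in either line and 0 had an unadjusted p under 0.05. The smallest p belonged to Syce1 in KY-2 (0.18 ± 0.08, limma adjusted p = 0.4) and to Stag3 in KY-1 (-0.12 ± 0.11, limma adjusted p = 0.769). The nearest relatives of Xlr share probe sets with several symbols and are not named here.

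**Figure D4:**
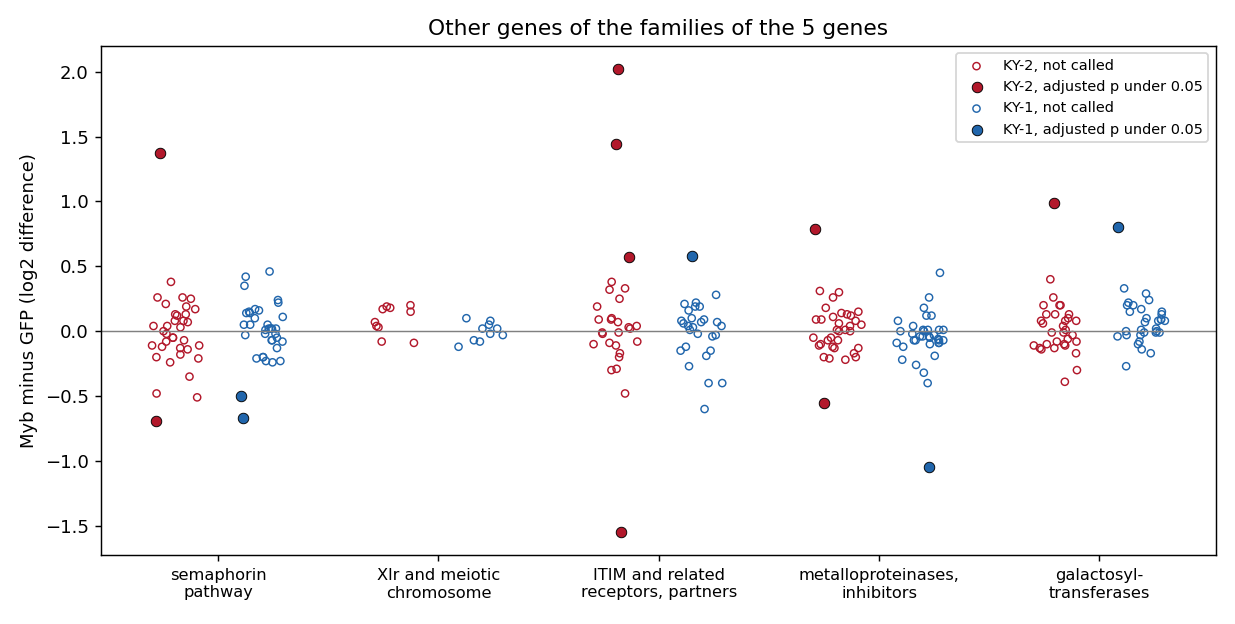
Log2 difference, Myb minus GFP, of each measured gene of the 5 family lists in KY-2 (red) and KY-1 (blue), without the 5 genes themselves; filled points had a limma adjusted p under 0.05. Most points lie near 0, and the widest spread is among the ITIM and related receptors in KY-2, from Clec12a at 2.02 to Lilr4b at -1.55.

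Genes with the most similar pattern were found by Pearson correlation over the 10 samples, among 3064 genes with an SD of at least 0.3. The 5 genes themselves and genes with Gm, LOC or Rik symbols were left out of these candidates. The samples share their lines, vectors and normalization, so the correlations are a description of these samples. B3galt2 was most like Ncr1, the activating receptor NKp46 (r = 0.993), followed by Psd2 (r = 0.992) and Ifngr1, a chain of the interferon gamma receptor (r = 0.989). Ncr1 averaged 5.34 in KY-2 with Myb and 5.43 in KY-2 with GFP, against 7.76 in KY-1 with Myb and 9.72 in KY-1 with GFP. As for B3galt2, the vectors stood far apart in KY-1 and close together in KY-2. The KY-2 levels of Ncr1, and of Psd2 (5.27 with Myb and 5.51 with GFP), were close to the low-signal level of 5.07. A fall there would be hard to see, so the likeness to B3galt2 in KY-2 (6.36 with Myb and 6.56 with GFP) is uncertain.

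Timp2 was most like the chemokine gene Ccl3 (r = 0.982), then Gng2 (r = 0.978), a G protein subunit, and Zdhhc15 (r = 0.976). Ccl3 averaged 10.80 in KY-2 with Myb and 12.19 in KY-2 with GFP, and 8.26 in KY-1 with Myb and 9.91 in KY-1 with GFP. Xlr was most like Chn2 (r = 0.987), Meis3 (r = 0.984) and Grk5 (r = 0.983), a kinase of G protein-coupled receptors. Grk5 came nearest in size, with means of 7.64 in KY-2 with Myb and 8.58 in KY-2 with GFP, and 5.47 in KY-1 with Myb and 6.64 in KY-1 with GFP.

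Lilrb4a was most like Ddx58, the RNA sensor RIG-I (r = 0.983), Cd226, the activating receptor DNAM-1 (r = 0.981), and its neighbour Lilr4b (r = 0.976). Cd226 averaged 8.30 in KY-2 with Myb and 9.36 in KY-2 with GFP, and 9.61 in KY-1 with Myb and 10.36 in KY-1 with GFP. Sema6d was most like Neb, which encodes the muscle protein nebulin (r = 0.978), Stap1, a signalling adaptor (r = 0.952), and Rabgap1l (r = 0.944). Neb averaged 6.63 in KY-2 with Myb and 7.57 in KY-2 with GFP, and 6.15 in KY-1 with Myb and 6.94 in KY-1 with GFP.

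**Figure D5:**
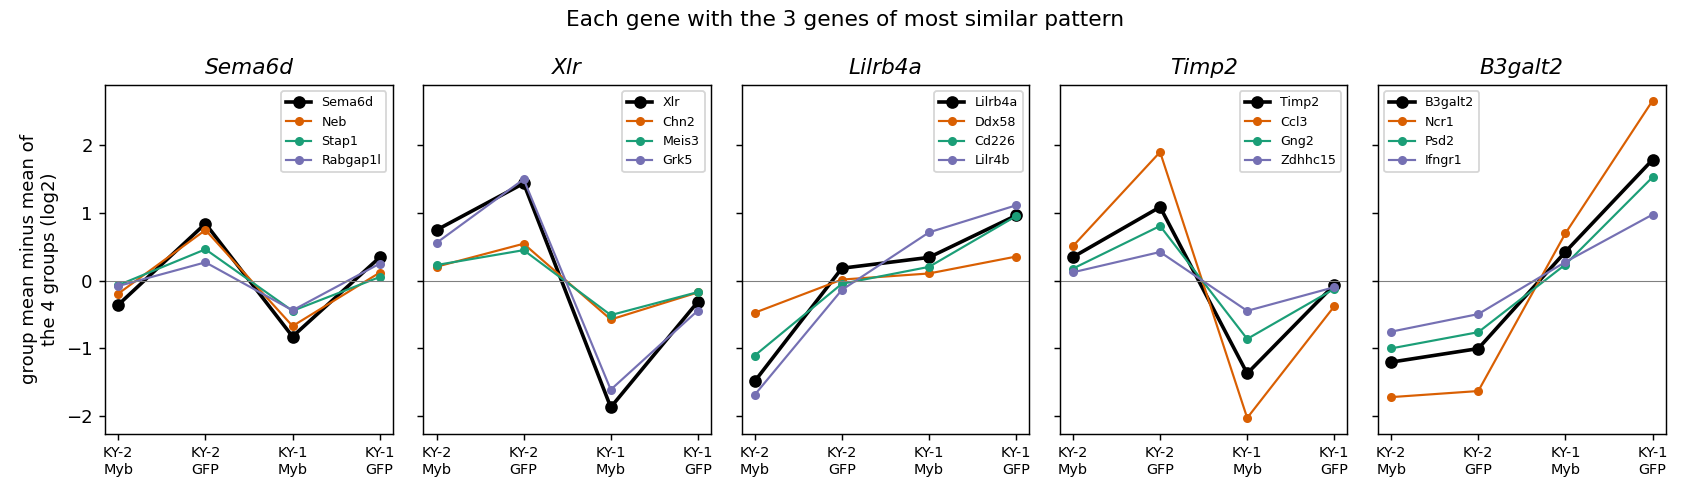
Group means, less the mean of the 4 groups, on the log2 scale for each of the 5 genes (black) and the 3 genes with the highest Pearson correlation to it over 10 samples. The 5 genes were not candidates for each other. Xlr and Timp2 follow 1 order of groups, Lilrb4a and B3galt2 another, and Sema6d is highest in both GFP groups.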

How the data were processed

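The authors deposited log2 values per probe set. The submitters' processing notes name Partek and RMA, and the sources used here give no versions, options or filters. RMA subtracts background, normalizes between arrays and summarises probes, and leaves no detection calls. The 12 arrays were grouped by title. Probe sets with 1 symbol (21789 of 35556) were kept, with the brightest per gene, which left 19938 genes without a filter on low values. Array pairs of 1 group with a robust SD of log2 differences under 0.5 times the median pair (0.0433 and 0.0469, against 0.102 to 0.172 for the others) were averaged. This gave 10 samples.

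A single limma model (version 3.58.1, R 4.3.3) of the 4 group means was fitted, with 6 residual and 4.89 prior degrees of freedom. Adjustment was by Benjamini-Hochberg across all genes, with a threshold of 0.05, and the fit was tested on simulated data. The line contrast weighted GFP by 0.4 and Myb by 0.6 in each line, so that its error is uncorrelated with the vector contrasts. The 5 genes and the lists were chosen with earlier results of these data known. Named genes were the 5, Myb, up to 4 called genes per list and line (or the smallest p) and 3 most similar genes each. Trp53 was not analysed here. Alternatives were other normalization, filtering, moderation, weights and replicates. The number of arrays limits the precision.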

Additional observations from a re-analysis of the deposited data

Results flagged for a closer look

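Among the 4 KY-1 Myb arrays, Xlr read 3.60 on array 3, far from the other 3, which lay between 2.93 and 3.04. Array 4, which was averaged with it, read 2.93, and the whole group lay below the low-signal level. Chance marks about 1 in 20 such groups of 4 independent arrays, but arrays 3 and 4 were a close pair, so the rate for this group is not known.

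The difference between the lines in the Myb effect was called for 0.843% of all genes (KY-2 minus KY-1, limma, adjusted over all genes). The family genes named above were picked by p in the vector contrasts behind it, so their count cannot be set beside that share. Of these named genes, 4 differed at an adjusted p under 0.05. They were Clec12a (1.94 ± 0.12, adjusted p = 2.42e-05), Sema4a (1.39 ± 0.18, adjusted p = 0.00309), Milr1 (0.86 ± 0.11, adjusted p = 0.00389) and Mmp9 (1.10 ± 0.21, adjusted p = 0.0354). Clec12a and Sema4a were called higher with Myb in KY-2 only, with KY-1 differences of 0.08 ± 0.09 and -0.02 ± 0.12. Milr1 rose in both lines, with the larger rise in KY-2, and Mmp9 was lower in KY-1 with Myb. Milr1 was close to the low-signal level in KY-2 with GFP (5.14), so the size of its difference is uncertain. In KY-2 Mmp9 lay below the low-signal level with both vectors (4.97 with Myb and 4.92 with GFP), where a fall may be harder to see.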

How the results depend on the processing

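The line differences of the 5 genes kept their direction and their call in every alternative run. Leaving out 1 replicate gave 2.19 to 2.35 for Xlr, -2.21 to -1.97 for B3galt2, 1.41 to 1.56 for Timp2, -1.49 to -1.34 for Lilrb4a and 0.43 to 0.52 for Sema6d, and the highest adjusted p over all alternatives was 0.00128, for Sema6d. The gene filter removed Sema6d and Xlr.

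KY-1 had 244 called genes over the whole array and KY-2 had 565. KY-1 had 823 with all 12 arrays as separate replicates, 430 among brighter genes, 484 with trended moderation, 106 with KY-1 arrays alone and 72 to 227 with 1 replicate left out (83 without GFP arrays 1 and 2, 140 without Myb arrays 3 and 4). KY-2 had 888 with trended moderation, 346 with KY-2 arrays alone and 182 to 556 with 1 replicate left out (182 without GFP replicate 1, 284 without GFP replicate 2). The line contrast kept 7224 to 7767 of 7919 in number with 1 replicate left out.

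With all 12 arrays the calls were 3 for ITIM-related receptors, 3 for metalloproteinases and 4 for semaphorins, all in KY-1. Trended moderation gave 3 for metalloproteinases in KY-1 and 4 for semaphorins in KY-2. The filter gave 0 galactosyltransferases in each line, 1 metalloproteinase and 4 semaphorins in KY-2. It took the called genes B3gnt5, St3gal5, Mmp13 and Sema4f out of the fit, so their calls could not appear there. The semaphorin calls in KY-1 were 1 after quantile normalization, centring or array weights, and 0 with robust moderation or KY-1 arrays alone. KY-2 arrays alone gave 0 metalloproteinases and 1 semaphorin. With 1 replicate left out, calls in KY-1 were 0 to 1 for semaphorins, ITIM-related receptors, metalloproteinases and galactosyltransferases, and in KY-2 1 to 3, 3 to 5, 0 to 2 and 0 to 1 in that order. Stag3 in KY-1, never called, ran from -0.29 to 0.05 with 1 replicate left out (0.05 without GFP replicate 3, -0.17 without Myb replicate 2). The neighbouring genes had 2 calls in KY-2 without GFP replicate 2. The cause of these changes was not tested beyond the smaller number of samples or genes in a fit.

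Equal replicate numbers did not pair arrays across groups (correlations of deviations between -0.20 and 0.07 over 15 pairs). A replicate block on all 12 arrays gave 350 calls in KY-1, 443 in KY-2 and 8019 between the lines.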
